A study of Rattus norvegicus with 9 samples.

Results

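Pattern recognition receptors and complement were examined in cardiac RNA-seq tables of 9 rats, 3 in each of 3 groups. Genes were chosen by symbol, which takes in Toll-like receptors, NOD-like receptors, their co-receptors, adaptors and kinases, C-type lectins, Fc gamma receptors, scavenger receptors, soluble recognition proteins and complement. Of 5760 genes listed in either table, 48 belonged to this set. The table for the Cal and model groups held 45 of them, the table for the model and sham groups held 16, and 13 were in both. Each table listed only genes to which the authors' own test gave an adjusted p under 0.05, so a gene of the set without a listing was not analysed here, and every member named below had been selected as differing before any test reported here.

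All animals were male Sprague Dawley rats. The sham group, labelled Control, had surgery without any ligation, the model group had its left anterior descending artery tied, which causes myocardial infarction and then heart failure (HF), and the Cal group had the same operation followed by calycosin (Cal), an isoflavone of Astragalus, by mouth at 80 mg/kg per day. Treatment began 24 h after surgery and lasted 28 days, and the sham and model groups drank the same volume of distilled water. The 3 rats per group were a random draw from larger groups, and neither their age nor the part of the heart used is stated. Heart muscle was recognizable by Myh6, which encodes the alpha myosin heavy chain and is listed in the model and sham table, at 275029 ± 33746 (SD, n = 3) in the Con libraries and 335145 ± 1036 in those headed Cal.

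The headings of the deposited columns contradict each other, and this bears on every direction below. In the Cal and model table the mean column headed Cal equals the average over the 3 libraries headed Model in 4288 of 4288 genes, and the mean column headed Model equals that over the libraries headed Cal. The model and sham table has no sample column headed Model, and its mean column headed Model equals the mean of the columns headed Cal. Reads of the libraries headed Cal were the same in both tables for all 986 genes that both tables list. Below, a library carries the heading of its own column. Going by the mean columns, the libraries headed Cal would come from model rats and the libraries headed Model from rats given Cal.

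Pattern recognition receptors detect microbial molecules and molecules released by injured cells. Toll-like receptors lie at the surface or in endosomes, and most of them signal through the adaptor Myd88 and kinases of the Irak family. NOD-like receptors act in the cytosol, and C-type lectins and scavenger receptors bind sugars, lipids and modified proteins on phagocytes and endothelium. Complement is a protease cascade started by C1q on bound antibody or by slow activation of C3, held back by inhibitors such as Serping1 and Cd55, and read by the receptors C3ar1 and C5ar1. Infarcted heart muscle is known to engage both systems through molecules from dying cells.

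Promoters of members were taken from RefSeq for the rat (GRCr8) and searched on both strands for a kappaB element (GGG, any 2 bases, then TTTCC), bound by NF-kappaB, for an interferon-stimulated response element (GAAA, any 2 bases, then GAAA), bound by interferon regulatory factors, and for the AP-1 element (TGANTCA). Of the 48 members, 28 had a promoter of 300 bases, from 250 before to 50 after the start. The kappaB letters were in 1 of these 28 (C3ar1) and in 1.53% of all 33469 rat promoters. The interferon regulatory factor letters were in 3 (Clec4d, Fcgrt and Myd88) and in 3.92% of all, and those of AP-1 in 4 (C3ar1, Cfp, Myd88 and Pglyrp1) and in 7.33%. The 4 promoters with a match to the first or second motif are shown, since they carry the letters searched for, and are given 5′ to 3′ with every match in capitals. In that of C3ar1 the AP-1 match is followed by the kappaB match on the opposite strand, and in that of Clec4d the match reads on the opposite strand. A match describes letters and is not a measured site.
C3ar1, rat GRCr8 chr4:157756481-157756780, minus strand: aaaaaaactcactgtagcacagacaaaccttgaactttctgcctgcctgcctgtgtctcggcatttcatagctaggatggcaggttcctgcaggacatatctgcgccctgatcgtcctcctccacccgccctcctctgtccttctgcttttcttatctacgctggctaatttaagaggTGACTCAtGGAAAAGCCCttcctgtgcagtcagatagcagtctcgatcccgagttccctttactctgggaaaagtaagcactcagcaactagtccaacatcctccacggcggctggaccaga
Clec4d, rat GRCr8 chr4:158275093-158275392, plus strand: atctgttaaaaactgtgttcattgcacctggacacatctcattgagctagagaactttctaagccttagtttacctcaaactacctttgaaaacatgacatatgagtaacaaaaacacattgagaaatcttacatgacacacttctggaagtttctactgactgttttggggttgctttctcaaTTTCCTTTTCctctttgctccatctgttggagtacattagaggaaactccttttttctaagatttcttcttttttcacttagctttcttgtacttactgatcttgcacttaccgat
Fcgrt, rat GRCr8 chr1:104719977-104720276, minus strand: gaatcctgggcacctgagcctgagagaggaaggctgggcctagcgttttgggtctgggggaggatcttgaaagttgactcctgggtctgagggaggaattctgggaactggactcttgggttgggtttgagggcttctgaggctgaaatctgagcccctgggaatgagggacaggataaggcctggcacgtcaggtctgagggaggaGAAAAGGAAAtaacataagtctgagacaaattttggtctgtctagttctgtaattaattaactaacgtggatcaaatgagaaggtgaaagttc
Myd88, rat GRCr8 chr8:127956181-127956480, minus strand: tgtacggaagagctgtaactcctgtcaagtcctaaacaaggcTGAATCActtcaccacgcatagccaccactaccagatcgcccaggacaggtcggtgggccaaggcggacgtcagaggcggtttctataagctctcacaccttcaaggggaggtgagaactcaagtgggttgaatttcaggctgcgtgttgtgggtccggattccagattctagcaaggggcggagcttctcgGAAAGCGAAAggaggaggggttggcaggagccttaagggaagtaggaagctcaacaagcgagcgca

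Expression is given as a normalized count, a gene's reads divided by the size factor of its library. Within each table limma was run on log2(normalized count + 1), its p-values were corrected over every gene of the table (Benjamini-Hochberg), and a gene was called when the adjusted p was under 0.05 and the log2 fold change beyond 1. Reads on listed genes were 2860826 to 3998471 per library for Cal and Model, and 3270460 to 4659882 for Cal and Con, and full depth is unknown. Single values of 3 libraries against 3 cannot reach an exact two-sided permutation p under 0.05.

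Markers of other cell types moved with the groups and are given first. Of 10 neutrophil markers, 9 were listed between the libraries headed Cal and Model and all 9 were called lower in those headed Cal, with a summed normalized count of 1058 to 1176 in the libraries headed Model and 83.02 to 253 in those headed Cal. Mpo, a granule enzyme that defines neutrophils, was at 0 in all 3 libraries headed Cal and barely detected in those headed Model, at 4.38 ± 2.89. Against Con, the neutrophil proteins S100a8 and S100a9 were called higher in the libraries headed Cal, with sums of 13.05 to 28.5 in the Con libraries and 48.5 to 183 in those headed Cal. Of 8 macrophage markers, 5 were listed between Cal and Model, where Csf1r, Cd163 and Lyz2 were called higher and Fcgr1, itself a member, lower in the libraries headed Cal, with summed levels of 5175 to 5625 against 2443 to 3301 in those headed Model. In the model and sham table the macrophage markers Mrc1 and Mertk were listed without a call, with sums of 1147 to 1301 (Con) and 809 to 913 (Cal). Of 6 endothelial markers 5 were listed between Cal and Model, 3 of them called higher in the libraries headed Cal (Tek, Kdr and Pecam1), with sums of 10997 to 13537 against 4754 to 5919, and 4 were listed between Cal and Con, where Kdr was called lower, with sums of 11448 to 13112 against 18508 to 20788. Of 6 fibroblast markers 3 were listed in each table. Between Cal and Model, Col1a1 and Col1a2 were called higher in the libraries headed Cal. Dcn went the other way without a call, at 13976 ± 3068 (Model) and 8610 ± 1228 (Cal), a log2 fold change of -0.68. It was the largest part of the sums, 12086 to 15382 (Cal) against 13412 to 19335 (Model). Against Con, Pdgfra was called lower in the libraries headed Cal, and Lum and Dcn were lower without a call. The sums were 9463 to 12300.4 (Cal) against 14247 to 15843 (Con). Gzmb was the 1 listed gene of 5 NK cell markers, at 1.84 to 5.12 in the libraries headed Cal and 46.3 to 66.1 in those headed Model, and of 8 cardiomyocyte markers Myh6 and Ryr2 were listed between Cal and Con without a call. None of the T cell, B cell, hepatocyte or leukocyte (Ptprc) markers was listed. In heart tissue fewer cells of a type and less RNA per cell cannot be told apart, and the part of these cell types in the results below was not tested.

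In the libraries headed Cal compared with Con, 10 members rose and 3 fell. The receptors Tlr2, Cd14, Nod2 and Nlrp3, the adaptor Myd88, the kinase Irak2, the lectins Clec4d and Clec4e, the pentraxin Ptx3 and the receptor C5ar1 were higher, and the lectins Clec1a, Clec9a and Clec14a were lower. Thus 13 of 16 members were called, beside 29.0% of all 2458 genes in that table, with 18.0% called higher and 10.9% called lower over all genes. The median log2 fold change of the 16 members was 2.003, and that of all listed genes 0.37. Groups of 3 libraries did not overlap for 16 of 16 members and for 97.4% of all genes. The mean columns call this comparison model over Con.

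**Figure D1:**
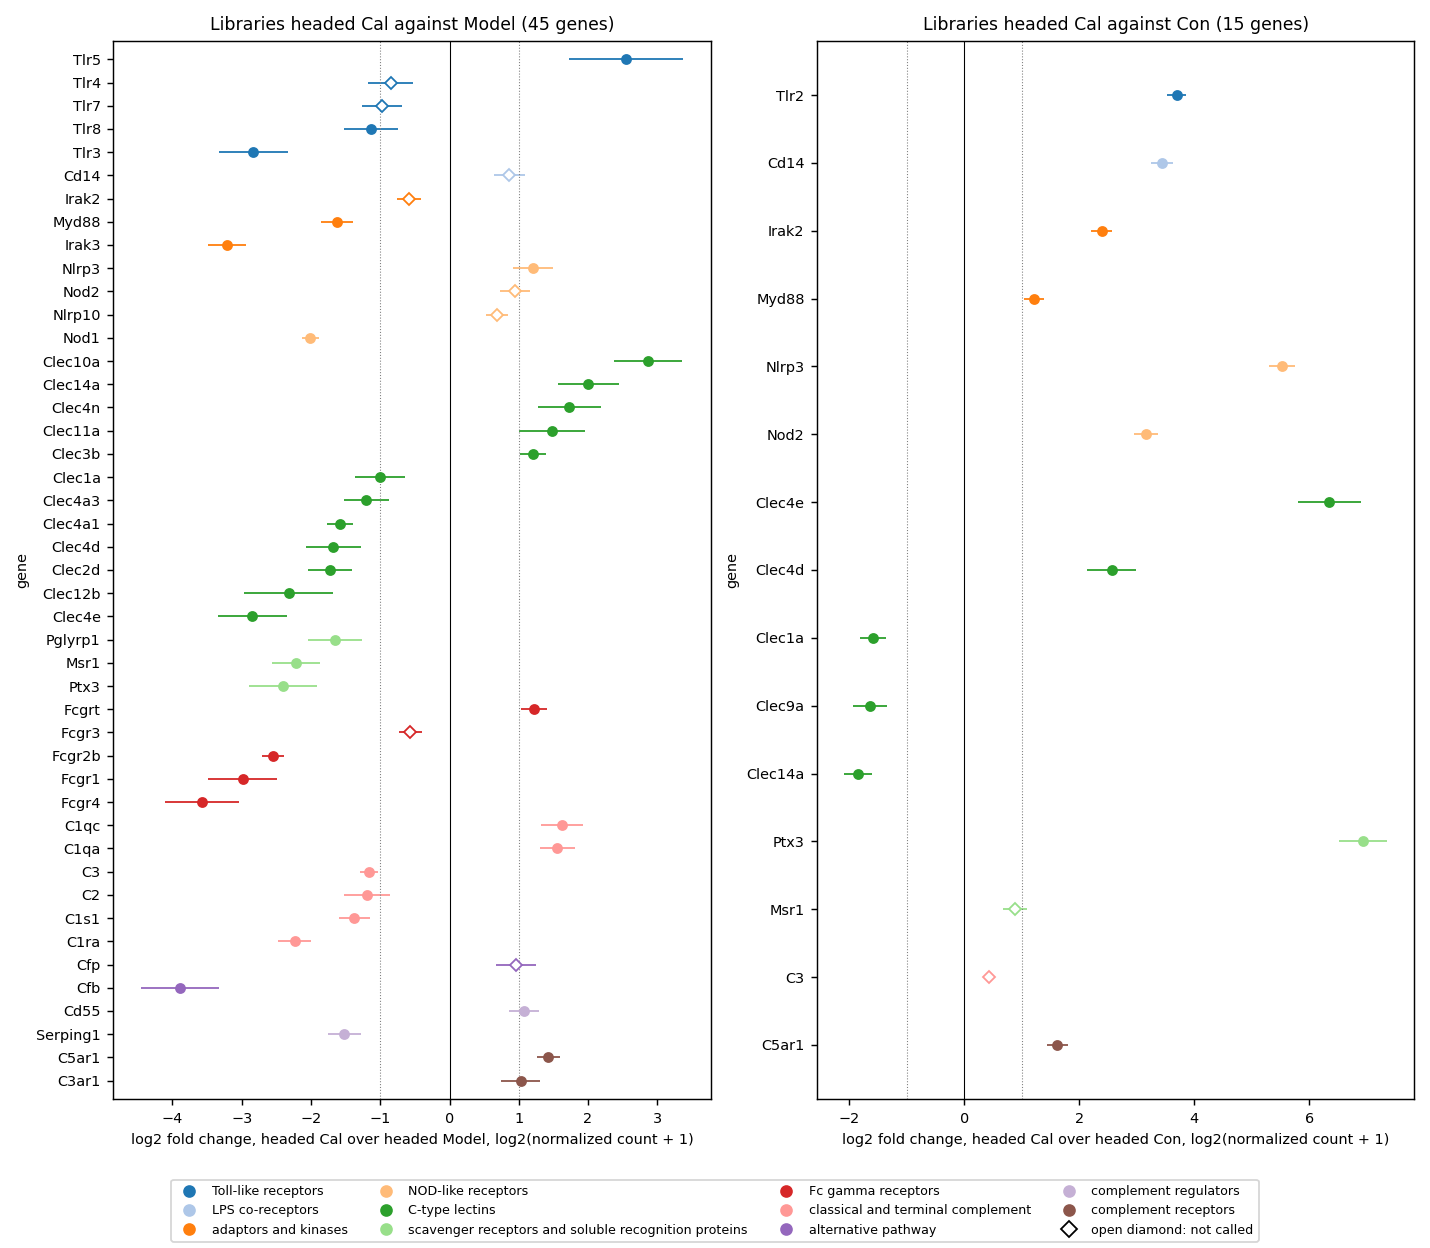
Log2 fold change of each member, libraries headed Cal over Model (left, 45 genes) and Cal over Con (right, the 15 genes that were called or are in both tables), on log2(normalized count + 1), with the standard error from limma as bars and colours for roles. Filled circles were called, open diamonds were not, and dotted lines mark a log2 fold change of 1 in either direction, with Ptx3 farthest right at 6.93 in the comparison with Con and Cfb farthest left at -3.89 in the other.

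Between the libraries headed Cal and Model, 37 of 45 members were called, beside 60.1% of all 4288 genes. They divided into 13 members higher under the heading Cal and 24 lower there, while over all genes 28.4% were called higher and 31.6% lower. Taking Cal over Model, the members had a median log2 fold change of -1.13 and all listed genes -0.52, so the table as a whole leaned the same way. The groups did not overlap for 43 of 45 members and for 98.2% of all genes, with Clec1a and Tlr4 as the members that overlapped. Median-ratio scaling on the listed genes gave 16 higher and 19 lower members, and moved the share of calls over all genes that were higher in the libraries headed Cal from 47.3% to 61.1%. The other 8 members passed an adjusted p of 0.05 but not the fold limit. Without that limit 4272 of all 4288 genes passed, since the table lists only genes selected as differing. The comparison with Con and this one share the libraries headed Cal, and here the mean columns swap both group names.

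Tlr2, the surface receptor for bacterial lipoproteins, had normalized counts of 99.7, 90.4 and 79.96 in the 3 Con libraries and 987, 1131 and 1444 in those headed Cal. Each library headed Cal lay far above each Con library, 13.2-fold on the means (log2 fold change 3.69, standard error 0.16, adjusted p = 1.20e-06). Tlr2 is not listed for the Cal and model groups. Cd14, which hands lipopolysaccharide to Tlr4, went from 138, 177 and 124 in the Con libraries to 1250.4, 2047 and 1539.7 in those headed Cal. The groups were apart by 11.01-fold (log2 fold change 3.44, adjusted p = 3.95e-06). In the libraries headed Model Cd14 was at 697, 694 and 968, below the 1118, 1826 and 1381 of those headed Cal on that table's scale. Replicates did not overlap, yet the change from Model to Cal, 0.86 in log2 (standard error 0.22, adjusted p = 0.00762), stayed short of the fold limit. It passed without Model replicate 3 (1.02) or Cal replicate 1 (1.03), and under quantile normalization (1.32) or median-ratio scaling (1.16).

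Among the 5 Toll-like receptors listed between the libraries headed Cal and Model, 2 were called lower in those headed Cal, 1 higher, and 2 were not called. The share called, 60.0%, was close to the 60.1% of all 4288 genes. Tlr3, the endosomal receptor for double-stranded RNA, lies on mouse chromosome 8 from 45395665 to 45411080 in the deposited annotation. Its normalized counts were 1187, 4471 and 1382 in the libraries headed Model and 208, 245 and 392 in those headed Cal. Model replicate 2 stood far above its replicates, and all libraries headed Model exceeded all headed Cal. Tlr3 was 8.33-fold higher in the libraries headed Model (log2 fold change of Cal over Model -2.83, standard error 0.50, adjusted p = 0.00191) and had a log2 fold change of -2.23 without Model replicate 2. Tlr8, an endosomal receptor at low counts, fell to 19.7 ± 3.99 in the libraries headed Cal from 46.9 ± 19.2 (log2 fold change -1.13, adjusted p = 0.0221). That call was lost with a pseudocount of 10 (-0.88), under median-ratio scaling (-0.84), and without Model replicate 1 (-0.95) or 2 (-0.91) or Cal replicate 1 (-1.12, adjusted p = 0.0550 from limma) or 2 (-0.99). Tlr5, the flagellin receptor, was barely detected, with 7.56, 0 and 2.88 in the libraries headed Model and 10.1, 35.7 and 15.4 in those headed Cal (log2 fold change 2.55, standard error 0.82, adjusted p = 0.0175), and was not called without Cal replicate 2 (2.07, adjusted p = 0.0585). The single-stranded RNA receptor Tlr7 had 218 ± 76.01 and 109 ± 25.5 in the libraries headed Model and Cal, and the lipopolysaccharide receptor Tlr4 547 ± 199.6 and 293 ± 77.9, with log2 fold changes of -0.97 and -0.85 that were not called. Tlr7 was called by DESeq2 (-1.001) and without Model replicate 1 (-1.07) or 3 (-1.14) or Cal replicate 1 (-1.01) or 3 (-1.13), and Tlr4 without Model replicate 3 (-1.21) or Cal replicate 2 (-1.05).

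Myd88, the adaptor shared by most Toll-like receptors, whose promoter is shown above, had 269, 279 and 211 in the Con libraries and 502, 542 and 725 in those headed Cal. The rise was 2.33-fold (log2 fold change 1.21, standard error 0.17, adjusted p = 0.000622), and quantile normalization and median-ratio scaling took it to 0.94 and 0.93, short of the fold limit. On the scale of the other table Myd88 was at 449, 483 and 649.9 in the libraries headed Cal and 1216, 2044 and 1684 in those headed Model. All libraries headed Model were higher, by 3.12-fold (log2 fold change of Cal over Model -1.63, standard error 0.23, adjusted p = 0.000851). Irak3, a member of the kinase family known to restrain Toll-like receptor signalling, had 1855, 2148 and 1358 in the libraries headed Model against 132, 195 and 260.5 in those headed Cal. It had the lowest fold change of the adaptors and kinases, with -3.21 (standard error 0.28, adjusted p = 0.000195), and is not listed between the libraries headed Cal and Con. Irak2, a kinase that acts downstream of Myd88, rose 5.22-fold from 178, 161 and 116 (Con) to 692, 790.4 and 893 (Cal) (log2 fold change 2.39, adjusted p = 1.67e-05). Between the libraries headed Cal and Model its log2 fold change was -0.59 (adjusted p = 0.0124), which was not called.

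NOD-like receptors differed among themselves. Nlrp3, the sensor of the inflammasome that activates caspase-1, lies on mouse chromosome 11 from 59541568 to 59566956. It was low in the Con libraries, at 18.6, 16.7 and 12.1, and at 975, 675 and 669 in those headed Cal. This difference of 48.8-fold (log2 fold change 5.52, standard error 0.22, adjusted p = 8.28e-07) was far larger than the spread between replicates. The libraries headed Model held 340.2, 389 and 195, below the 872, 602 and 600.4 of those headed Cal on the same scale. Nlrp3 was thus higher in the libraries headed Cal than in those headed Model as well, by 1.20 in log2 (standard error 0.29, adjusted p = 0.00588), which was 0.90 and not called without Model replicate 3. Nod2, which senses muramyl dipeptide, had 98.8, 126 and 72.9 in the Con libraries and 782, 797 and 1063 in those headed Cal. It rose 8.88-fold (log2 fold change 3.16, adjusted p = 9.92e-06), and its change from Model to Cal, 0.94 in log2 (adjusted p = 0.00506), was not called. It passed the fold limit under both other scalings, at 1.24 each, and without Model replicate 2 (1.12), Cal replicate 1 (1.02) or Cal replicate 2 (1.01). Nod1, which senses another peptidoglycan fragment, went the other way. Its normalized counts were 2019, 2205 and 2108 in the libraries headed Model and 499, 555 and 517 in those headed Cal. With small spread in each group, Nod1 was 4.03-fold higher in the libraries headed Model (log2 fold change of Cal over Model -2.01, standard error 0.12, adjusted p = 8.90e-05). Nlrp10, a NOD-like receptor without leucine-rich repeats, had 275 ± 35.6 in the libraries headed Model and 441 ± 31.2 in those headed Cal (log2 fold change 0.68, not called).

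C-type lectins split by direction, with 7 of 12 called lower and 5 called higher in the libraries headed Cal than in those headed Model. The table as a whole was also called in both directions, with 31.6% of all genes lower and 28.4% higher. Clec4e (Mincle), a phagocyte receptor for glycolipids and for a protein of dead cells, had 950.3, 1251 and 358 in the libraries headed Model and 63.6, 151 and 116 in those headed Cal. Model replicate 3 was the lowest of its group and was still above every library headed Cal. The difference was 7.74-fold (log2 fold change of Cal over Model -2.85, standard error 0.50, adjusted p = 0.00188). In the Con libraries Clec4e had 2 reads in all, against 366 in those headed Cal, a ratio of normalized sums of 190 with a 95% counting interval of 52.2 to 1573. Clec4d, its partner receptor, whose promoter is shown above, had 7.45, 13.8 and 10.1 in the Con libraries and 40.2, 122 and 55.2 in those headed Cal. It was 6.94-fold higher in the latter (log2 fold change 2.56, adjusted p = 0.00140). The libraries headed Model held still more Clec4d, 236, 180.5 and 154 against 35.97, 109 and 49.5 on that table's scale (log2 fold change of Cal over Model -1.68, adjusted p = 0.00611). Neutrophil markers were lower in the libraries headed Cal than Model and higher than in Con. Of the 5 listed macrophage markers, 3 were called higher in Cal than Model, Fcgr1 was called lower and Cd68 was not called. The 2 macrophage markers listed against Con, Mrc1 and Mertk, were lower in Cal without a call. The part of either cell type was not tested.

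Clec2d, a ligand of receptors on natural killer cells, had 1598, 2494 and 2115 in the libraries headed Model and 452, 512 and 1005 in those headed Cal. Cal replicate 3 was the highest of its group and remained below all libraries headed Model (log2 fold change -1.72, standard error 0.32, adjusted p = 0.00220). Clec4a1, an antigen-presenting cell lectin of the Clec4a family, had 301 ± 29.7 (Model) and 100.1 ± 13.2 (Cal), a log2 fold change of -1.58 (adjusted p = 0.000410), and its relative Clec4a3 had 67.9 ± 25.6 and 28.1 ± 6.05 (-1.20, adjusted p = 0.00902). Clec4a3 was not called with a pseudocount of 10 (-0.997), under median-ratio scaling (-0.91) or without Model replicate 1 (-0.92). Reads could be split between such close relatives. The inhibitory lectin Clec12b was scarce, at 25.3 ± 21.8 in the libraries headed Model and 3.36 ± 1.49 in those headed Cal (log2 fold change -2.32). Lectins that were higher in the libraries headed Cal included Clec10a, a galactose-binding lectin of macrophages and dendritic cells, which had 3.24, 7.32 and 2.88 in the libraries headed Model and 55.3, 19.7 and 44.4 in those headed Cal (log2 fold change 2.87, adjusted p = 0.00181), and the fungal receptor Clec4n (Dectin-2), with means of 12.9 and 46.4 (1.73). The secreted lectin Clec3b (tetranectin) rose from 309 ± 66.1 in the libraries headed Model to 707 ± 76.2 in those headed Cal (log2 fold change 1.21, adjusted p = 0.00122), and the secreted factor Clec11a had means of 7.06 and 23.3 (1.48). The call of Clec11a was lost with a pseudocount of 10 (0.90) and without Model replicate 2 (1.27), Cal replicate 1 (1.16) or Cal replicate 3 (1.32), the last 3 at adjusted p-values of 0.0552, 0.0683 and 0.0608 from limma.

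Clec14a, a receptor of endothelial cells, was highest in the Con libraries, at 377, 431 and 435, against 166, 81.04 and 112 in those headed Cal. No library overlapped (log2 fold change of Cal over Con -1.84, standard error 0.24, adjusted p = 0.000397). On the other table's scale it had 149, 72.3 and 101 in the libraries headed Cal and only 43.2, 14.6 and 23.96 in those headed Model (log2 fold change of Cal over Model 2.005, adjusted p = 0.00410). Kdr, Pecam1 and Tek, the endothelial markers listed in both tables, had means that were likewise higher in the Con libraries than in those headed Cal and lowest in those headed Model, with Kdr alone called in both comparisons. Clec1a, also expressed by endothelium, fell from 319.6, 379 and 352 in the Con libraries to 167, 99.98 and 93.3 in those headed Cal (log2 fold change -1.58, adjusted p = 0.000581). In contrast to Clec14a it was then higher in the libraries headed Model, 219, 316 and 131 against 149, 89.2 and 83.7, where the groups overlapped and the call (log2 fold change of Cal over Model -1.002, adjusted p = 0.0272) was lost with a pseudocount of 10 (-0.94), under median-ratio scaling (-0.71), and without Model replicate 1 (-0.97) or 2 (-0.70) or Cal replicate 2 (-0.89) or 3 (-0.85). Clec9a, a dendritic cell receptor for exposed actin, had 57.8, 88.4 and 44.5 (Con) and 19.6, 16.8 and 20.9 (Cal) and fell by 3.32-fold (log2 fold change -1.63, adjusted p = 0.00189).

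**Figure D2:**
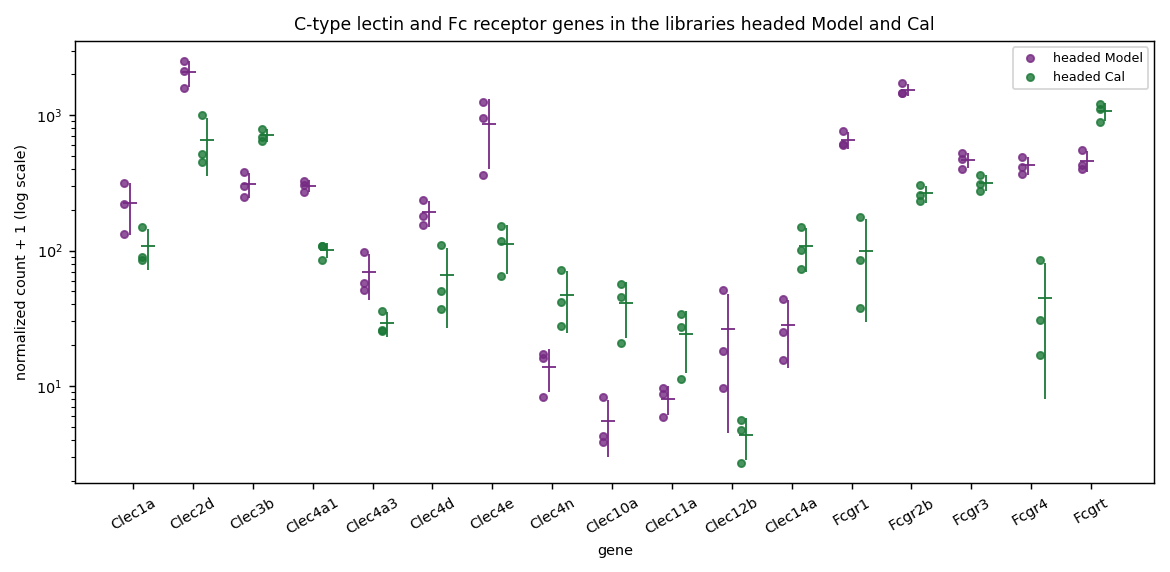
Normalized count + 1 on a log scale for 12 C-type lectin genes and 5 genes of the Fc receptor pattern, 3 points per heading, with a bar for the mean and SD of the 3 libraries. Fcgr1, Fcgr2b and Fcgr4 sit lower in the libraries headed Cal, Fcgrt sits higher, and the 2 groups of Clec1a overlap.

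Fc gamma receptors, which bind IgG on leukocytes, were lower in every library headed Cal than in any headed Model for all 4 listed genes, 3 of them called. Over all genes of that table, the groups did not overlap for 98.2%, and 31.6% were called lower in the libraries headed Cal. Fcgr2b, the inhibitory receptor, had 1725, 1455 and 1454 in the libraries headed Model and 229.7, 305 and 254 in those headed Cal. The groups were tight and 5.87-fold apart (log2 fold change of Cal over Model -2.55, standard error 0.16, adjusted p = 8.93e-05). Fcgr1, the high-affinity receptor, had 597, 768 and 613 (Model) and 84.9, 36.6 and 175 (Cal), with a wide spread in the second group (log2 fold change -2.99, standard error 0.50, adjusted p = 0.00156). The activating receptor Fcgr4 had the widest difference of this group, with 367, 490.2 and 416 under the heading Model against 29.5, 15.96 and 84.5 under Cal (log2 fold change -3.58, standard error 0.53, adjusted p = 0.00101). Fcgr3, another activating receptor, had 467 ± 60.5 and 316 ± 43.2 (log2 fold change -0.56), which was not called. These genes are close relatives, so that reads may have been shared among them. Fcgrt, which matches the pattern but encodes the neonatal Fc receptor that recycles IgG and albumin, was higher in the libraries headed Cal, at 1104, 895 and 1218 against 403, 424 and 555 (log2 fold change 1.22, standard error 0.18, adjusted p = 0.00105). None of the 5 is listed in the model and sham table, whose libraries are headed Cal and Con.

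Soluble and scavenger recognition molecules were called lower in the libraries headed Cal than in those headed Model for 3 of 3 genes, beside 31.6% of all genes. Ptx3, a long pentraxin that is secreted in inflammation and binds C1q, lies on mouse chromosome 3 from 66219910 to 66225805. It had 15.8, 10.8 and 23.3 in the Con libraries and 1069.8, 3478 and 2353 in those headed Cal. All libraries headed Cal were far higher, although their own values spread widely (138-fold on the means, log2 fold change 6.93, standard error 0.42, adjusted p = 5.54e-06). The libraries headed Model reached 5512, 14286 and 11645, above the 957, 3102 and 2110.3 of those headed Cal (log2 fold change of Cal over Model -2.40, standard error 0.49, adjusted p = 0.00328). Per kilobase of gene length, Ptx3 was the most abundant member in the libraries headed Model, with 3908 normalized counts per kb, and was 4th of 45 in those headed Cal, with 767. Msr1, the class A macrophage scavenger receptor, had 935, 965 and 408 (Model) and 142, 192 and 132 (Cal), with Model replicate 3 the lowest of its group but above all libraries headed Cal (log2 fold change -2.22, adjusted p = 0.00121). Against Con its log2 fold change was 0.88 (adjusted p = 0.00521), from 92.2, 112 and 76.9 to 159, 216 and 147, which was not called, and it was 1.02 without Con replicate 2. Pglyrp1, a peptidoglycan-binding protein of neutrophil granules, had 25.7 ± 6.80 and 7.72 ± 3.22 in the libraries headed Model and Cal (log2 fold change -1.65, adjusted p = 0.00558).

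Within the classical complement pathway the subunits of the recognition molecule and its proteases moved in opposite directions. C1qa, 1 of the chains of C1q, had 402, 376 and 578 in the libraries headed Model and 1357, 957 and 1723 in those headed Cal. C1qc, another chain, had 292, 219.5 and 496 and 1054, 772 and 1149. Both were higher in all libraries headed Cal, with log2 fold changes of 1.56 (standard error 0.26, adjusted p = 0.00147) and 1.62 (standard error 0.31, adjusted p = 0.00242). Of the 5 listed macrophage markers, 3 were called higher in the libraries headed Cal (Csf1r, Cd163 and Lyz2), Fcgr1 was called lower and Cd68 was not called, and their part in the C1q values was not tested. The protease genes C1ra and C1s1 were lower there, C1ra with 1106, 1707 and 1337 (Model) and 304, 219 and 359 (Cal) and C1s1 with 998.9, 1382 and 785 and 394, 347 and 451. Neither overlapped, and their log2 fold changes were -2.24 (adjusted p = 0.000309) and -1.38 (adjusted p = 0.00141). Serping1, which encodes the inhibitor of these proteases, had 4887, 7055 and 4399 in the libraries headed Model and 1968, 1439.8 and 2269.97 in those headed Cal. It was 2.88-fold higher in the former (log2 fold change of Cal over Model -1.52, adjusted p = 0.00122), with -0.93 under quantile normalization, short of the fold limit.

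C3, the protein on which the complement pathways converge, had 2609, 3018 and 2654 in the Con libraries and 3571, 3796 and 3732 in those headed Cal. The groups did not overlap, but the log2 fold change of 0.42 (adjusted p = 0.00224) was not called, and under quantile normalization it was -0.07. The libraries headed Model stood higher, at 7691, 6957 and 7533 against 3193, 3386 and 3347 (log2 fold change of Cal over Model -1.16, standard error 0.13, adjusted p = 0.000353), with -0.48 under quantile normalization and -0.86 under median-ratio scaling, neither of them called. Cfb, the protease of the alternative pathway, was scarce, with 65.9, 78.05 and 26.8 in the libraries headed Model and 0.922, 2.82 and 5.12 in those headed Cal. Its difference of -3.89 in log2 (standard error 0.57, adjusted p = 0.000960) was the lowest of the 45 members. C2, its counterpart in the classical pathway, had 60.3 ± 16.8 and 25.7 ± 7.02 (log2 fold change -1.19, adjusted p = 0.01003), and was not called with a pseudocount of 10 (-0.97), under median-ratio scaling (-0.90) or without Cal replicate 1 (-0.98). Properdin, which stabilizes the alternative pathway convertase, is encoded by Cfp and had 88.5 ± 34.7 (Model) and 166 ± 20.5 (Cal), with a log2 fold change of 0.96 that was not called. It was called under median-ratio scaling (1.25) and without Model replicate 3 (1.26) or Cal replicate 3 (1.06). Cd55, the membrane inhibitor that speeds decay of convertases, was higher in the libraries headed Cal, at 258, 262 and 249 against 153, 127 and 91.1 (log2 fold change 1.08, adjusted p = 0.00321), which was 0.87 and not called without Model replicate 3.

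Both receptors for complement fragments were called higher in the libraries headed Cal than in those headed Model, beside 28.4% of all genes. C5ar1, the receptor for C5a on neutrophils and macrophages, had 238, 152 and 155 in the Con libraries and 558, 516 and 567 in those headed Cal (3.01-fold, log2 fold change 1.62, adjusted p = 0.000183). In the libraries headed Model it was at 198, 152 and 197, below the 499, 459.9 and 508 of those headed Cal, with narrow spread in both groups (log2 fold change of Cal over Model 1.43, standard error 0.16, adjusted p = 0.000410). The 9 listed neutrophil markers were lower in the libraries headed Cal than Model and the 2 listed against Con were higher in Cal. Of the 5 listed macrophage markers, 3 were called higher in Cal than Model, Fcgr1 was called lower and Cd68 was not called. Against Con, the macrophage markers Mrc1 and Mertk were lower in Cal without a call. The part of either cell type was not tested. C3ar1, the receptor for C3a, whose promoter is shown above, had 140.4, 74.4 and 119.8 (Model) and 242, 176 and 254 (Cal). The groups did not overlap, but the log2 fold change of 1.03 (adjusted p = 0.00940) lay close to the limit. It was not called with a pseudocount of 10 (0.97), under quantile normalization (0.9992), or without Model replicate 2 (0.76), Cal replicate 1 (0.96) or Cal replicate 3 (0.93).

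**Figure D3:**
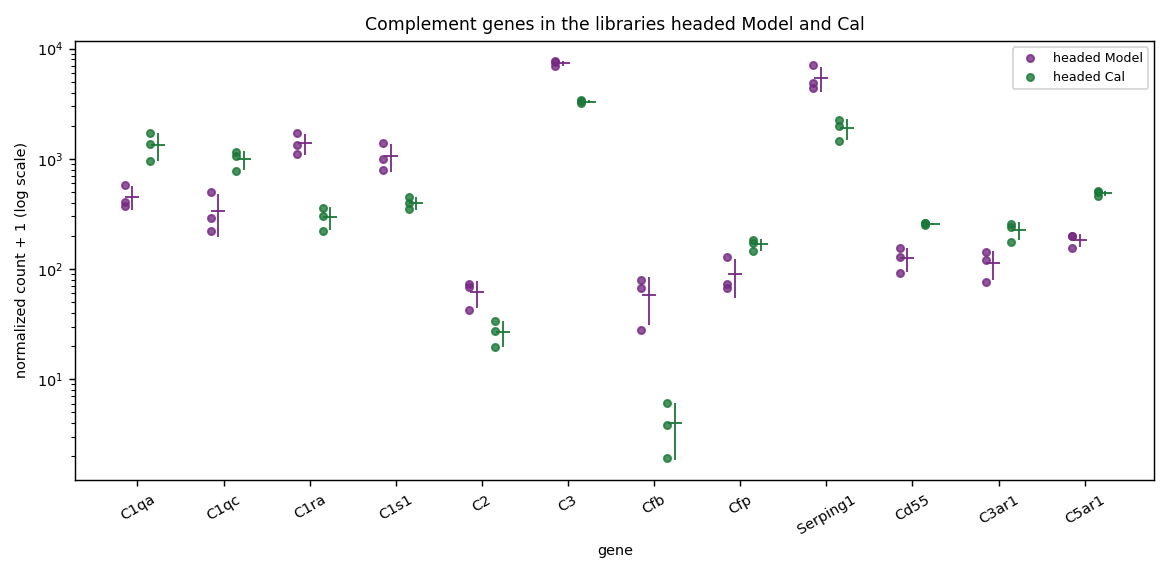
Normalized count + 1 on a log scale for 12 complement genes in the 3 libraries headed Model and the 3 headed Cal, with a bar for their mean and SD. C1qa, C1qc, Cfp, Cd55, C3ar1 and C5ar1 sit higher in the libraries headed Cal, and C1ra, C1s1, C2, C3, Cfb and Serping1 lower.

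The 13 members listed in both tables could be placed side by side in all 3 groups, with the Con libraries multiplied by 0.894 to bring them to the scale of the Cal and model table through the shared libraries headed Cal. This sets levels across tables that were normalized separately, so no test was made between Con and Model. All 13 had been selected as differing in both tables, and orders were not counted over the 986 genes that both tables list. Over all genes, groups did not overlap for 97.4% between Cal and Con and for 98.2% between Cal and Model. The order Con, Cal, Model from low to high was found for 7 genes (C3, Clec4d, Clec4e, Irak2, Msr1, Myd88 and Ptx3), and in each of them no neighbouring groups overlapped. Msr1, for example, had 83.8 ± 15.7 in the Con libraries, 155 ± 32.5 in those headed Cal and 769 ± 313 in those headed Model. The order Con, Model, Cal was found for 4 genes (C5ar1, Cd14, Nlrp3 and Nod2). Nlrp3 had 14.2 ± 2.98, 308 ± 101 and 691 ± 156 in that order. For C5ar1 the Con and Model libraries overlapped, at 162 ± 43.4 and 183 ± 26.04, and for Cd14, Nlrp3 and Nod2 no neighbours did. Clec14a had its highest level in Con and its lowest in Model, with no overlap, at 371 ± 28.9, 107 ± 38.5 and 27.3 ± 14.6 for Con, Cal and Model. Clec1a was also highest in Con, at 313 ± 26.7, but its Model libraries, at 222 ± 92.3, overlapped both other groups. If the mean columns are right, Model and Cal change places in these orders.

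**Figure D4:**
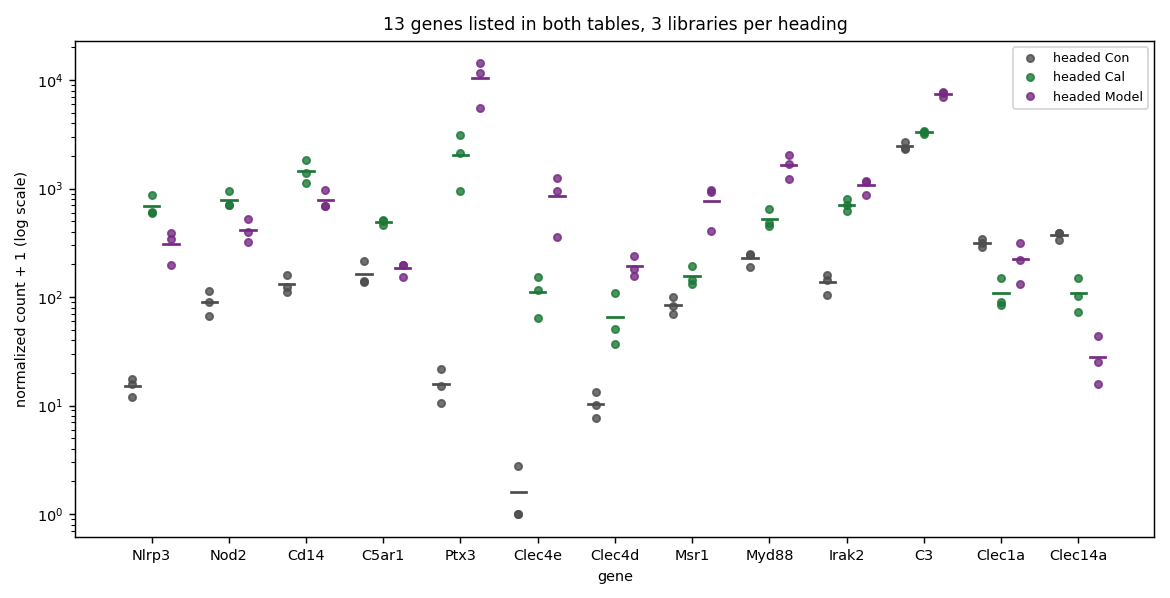
Normalized count + 1 on a log scale for the 13 members listed in both tables, 3 points per heading with a line at the mean, the Con libraries set on the scale of the Cal and model table. Nlrp3, Nod2, Cd14 and C5ar1 peak in the libraries headed Cal, 7 genes from Ptx3 to C3 peak in those headed Model, and Clec1a and Clec14a in Con.

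Several members lie near each other on mouse chromosomes. Of the 45 members of the Cal and model table, 20 fell into 7 clusters with gaps of at most 500 kb, in the positions the tables give without naming a build. On chromosome 6, from 122847138 to 123289870, C3ar1, Clec4a1, Clec4a3, Clec4n, Clec4d and Clec4e were listed, and C3ar1 and Clec4n were higher in the libraries headed Cal while the other 4 were lower. A second stretch of chromosome 6, from 129180615 to 129452000, held Clec2d, Clec12b and Clec1a, all 3 called lower. The groups of Clec1a overlapped, and its call was lost under several settings given above. C1ra and C1s1 lie within 29.96 kb on chromosome 6 and both fell, C1qa and C1qc within 9 kb on chromosome 4 and both rose, and Cfb and C2 within 41.9 kb on chromosome 17 and both fell. The receptors Fcgr2b, Fcgr4 and Fcgr3 occupy 106 kb of chromosome 1, with the first and second called lower in the libraries headed Cal. On chromosome X, Tlr8 was called lower and Tlr7, within the same 87.9 kb, was not called.

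Other genes of these pathways were counted from lists chosen by role. Of 39 signalling partners of Toll-like and NOD-like receptors, 18 were listed between the libraries headed Cal and Model, with 12 called lower and 2 higher in those headed Cal, beside the 31.6% and 28.4% of all genes given above, and a median log2 fold change of -1.67. Irf7, a transcription factor of the interferon response, had 10618 ± 3305 (Model) and 1607 ± 1287 (Cal), a log2 fold change of -3.14, the kinase Ikbke 348 ± 73.4 (Model) and 43.7 ± 2.10 (Cal), a log2 fold change of -2.94 and the inflammatory caspase Casp4 1843 ± 923 (Model) and 355 ± 87.8 (Cal), a log2 fold change of -2.29. Against Con, 13 of the 39 were listed, 8 called higher in the libraries headed Cal and none lower (18.0% and 10.9% of all genes). The cytokine Il1b had 18.6 ± 12.8 (Con) and 1609 ± 146 (Cal), a log2 fold change of 6.55, Tnfaip3, an inhibitor of NF-kappaB signalling, 114 ± 53.1 (Con) and 5552 ± 532 (Cal), a log2 fold change of 5.71, and Casp4 50.4 ± 9.23 (Con) and 397 ± 98.6 (Cal), a log2 fold change of 2.93. Il1b and Sigirr, an inhibitory receptor, were the partners called higher in the libraries headed Cal than in those headed Model. Casp1, Gsdmd and Il18 were among the 12 called lower there, with log2 fold changes of -1.97, -1.63 and -2.26.

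Of 21 nucleic acid sensors, 17 were listed between the libraries headed Cal and Model, and 16 of them were called lower in those headed Cal (31.6% of all genes), with Mavs as the other at a log2 fold change of 0.67. Zbp1, a sensor of Z-form nucleic acids, had 2721 ± 980.4 (Model) and 197 ± 187 (Cal), a log2 fold change of -4.35, the DNA sensor Ifi204 5413 ± 3010.5 (Model) and 445 ± 249.8 (Cal), a log2 fold change of -3.60 and the synthetase Oas3 578 ± 220.2 (Model) and 87.95 ± 97.4 (Cal), a log2 fold change of -3.38. Against Con, 4 were listed and 2 called, both higher in the libraries headed Cal (18.0% of all genes). These were Ifi211, with 134 ± 82.7 (Con) and 429 ± 215 (Cal), a log2 fold change of 1.72, and Tmem173, the adaptor also known as STING, with 157 ± 21.5 (Con) and 359 ± 81.8 (Cal), a log2 fold change of 1.17.

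Of 35 other complement genes, 9 were listed between the libraries headed Cal and Model, 5 called higher and 3 lower in those headed Cal (28.4% and 31.6% of all genes). Colec11, a lectin that starts the lectin pathway, had 45.7 ± 7.08 (Model) and 265 ± 60.9 (Cal), a log2 fold change of 2.49, Itgam, the alpha chain of complement receptor CR3, 186 ± 72.9 (Model) and 49.2 ± 1.94 (Cal), a log2 fold change of -1.83, and Susd2, a protein with a complement-type domain, 286 ± 35.4 (Model) and 44.8 ± 6.05 (Cal), a log2 fold change of -2.65. Against Con, Colec11 and Colec12 were listed and neither was called. Of 31 other scavenger and ITAM receptor genes, 16 were listed between Cal and Model, 7 called lower and 4 higher in the libraries headed Cal (31.6% and 28.4% of all genes, so that neither share stood far from the background), among them the kinase Fgr, with 154 ± 31.5 (Model) and 16.8 ± 2.64 (Cal), a log2 fold change of -3.11, and the inhibitory receptor Pirb, with 558 ± 29.97 (Model) and 95.9 ± 16.7 (Cal), a log2 fold change of -2.54. Against Con, 7 were listed and 5 called, all higher in the libraries headed Cal (18.0% of all genes). Olr1, the receptor for oxidized LDL, had 4.50 ± 1.81 (Con) and 112 ± 51.2 (Cal), a log2 fold change of 4.29, and Bcl10, an adaptor that links ITAM receptors to NF-kappaB, had a log2 fold change of 1.38.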

How the data were processed

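Poly(A) RNA of heart tissue from 9 rats (3 per group) was sequenced. The authors deposited, for each pairwise comparison, a table of normalized counts, a signal in which the reads of a gene are divided by 1 size factor per library, together with mean columns, gene length, fold changes and p-values. The fold changes and p-values were not used, and the tables list only genes with an authors' adjusted p under 0.05. Their Methods name rat reference sequences, the submitters' processing notes list Bowtie 0.12.2 with mm8 and mm9, and the tables carry mouse identifiers and positions. Which build gave these positions, and whether counting used strand, is not given in the sources used here.

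Multiplying each value by the size factor of its library returned whole reads for 100% of values (tolerance 0.01 read). Size factors ranged from 0.820 to 1.17. Each table was fitted separately with limma 3.58.1 in R 4.3.3 (trended prior variance, pseudocount 1, no filter), without a block. No pairing of same-numbered libraries is stated in the sources used here. The values were tested as normalized values, and the alternatives were DESeq2 1.42.0 or edgeR 4.0.16 run on those whole reads, other pseudocounts, scalings, filters and thresholds, a replicate block, and leaving out each library. The code was tested on simulated data. Members listed in both tables, and called members whose higher group averaged 100 or more, are given with full values, and up to 3 called genes of each pathway list at such a level. Other values, among them those of scarce members, Mavs and Sigirr, were chosen after they were seen. Errors are SD over 3 libraries unless named otherwise, and counting intervals cover counting error only. The values of 1 member and of 1 pathway gene are not reported here, though they stay in the counts. Members and lists were chosen with earlier results of these data known. Rat promoters came from RefSeq (GRCr8). Of 48 members, 42 had a mouse symbol that is also a rat symbol. Those without one were C1ra, C1s1, Clec4n, Fcgr1, Fcgr3 and Fcgr4.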

Additional observations from a re-analysis of the deposited data

How the results depend on the processing

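Counts of called members moved by less than 1.5 times under every alternative run. Between the libraries headed Cal and Model the count ran from 31 (pseudocount 10, or adjusted p under 0.01) to 45 (no fold limit) beside 37, and from 34 to 39 when 1 library was left out. Between Cal and Con it ran from 12 to 16 beside 13, and from 13 to 14. Without a fold limit, 4272 of 4288 and 2454 of 2458 genes were called over the whole tables, beside 2575 and 712. Of the fold changes recomputed for named members 1 reversed, that of C3 between Cal and Con under quantile normalization (-0.074, adjusted p = 0.495 from limma, beside 0.42), and the cause was not tested. Changes of call of single members under another scaling, pseudocount or tool, or without 1 library, are given beside the genes in the text, and those that follow from another threshold only as the counts above. Quantile normalization and median-ratio scaling moved the median log2 fold change of all genes from -0.52 to -0.10 and -0.23 (Cal over Model) and from 0.37 to -0.04 and 0.09 (Cal over Con), and in the second comparison the share of calls higher in Cal went from 62.2% to 47.3% and 43.3%. Same-numbered libraries correlated between -0.119 and 0.110 in the Cal and model table and between -0.140 and -0.0235 in the other. Differently numbered libraries ran from -0.197 to 0.253 and from -0.123 to 0.226. With 3 libraries per group these values cannot decide whether the numbers pair them. A replicate block gave 37 and 13 called members (13 higher and 24 lower, 10 higher and 3 lower), with 2574 and 713 calls over all genes. The 3 rats per group, the selection of listed genes and the unknown full depth limit what these tests can show.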
